A study of Mus musculus with 6 samples.

Results

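Among nuclei of the mouse frontal lobe, 178 of 30840 carried the transcript of Slc17a6, the vesicular glutamate transporter VGLUT2, together with transcripts typical of subcortical peptide-releasing neurons. They were chosen by their counts of unique molecular identifiers (UMIs), each UMI standing for 1 captured transcript. A nucleus had to hold at least 500 detected genes, at most 5% mitochondrial UMIs, at least 2 Slc17a6 UMIs, and at least 2 UMIs in all from Rmst, Baiap3, Ecel1, Resp18 and Hap1. It also had to hold at most 1 UMI of Slc17a7, at most 1 of Gad1 and Gad2, at most 1 of Chat, Slc5a7 and Slc18a3, and none of Cdhr1. The 4 genes given as markers of these cells (Slc17a6, Rmst, Baiap3 and Ecel1) are all part of that choice, so their levels are a description and are not tested. The nuclei are called Slc17a6 nuclei below.

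Neurons that use glutamate load it into synaptic vesicles with a vesicular transporter. In the adult mouse forebrain Slc17a7 (VGLUT1) serves most neurons of the cortex and hippocampus, and Slc17a6 serves most glutamate neurons of the thalamus, hypothalamus, septum and brainstem. Mitral and tufted cells of the olfactory bulb, which express Cdhr1, also use Slc17a6, and the rule leaves them out.

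Single-nucleus RNA sequencing counted transcript 3′ ends in 1 library per mouse. The 6 mice were SwDI/TWT (3, called wild type) and SwDI/TKO (3, called knockout), where TWT and TKO stand for wild-type and knocked-out Trem2, a receptor gene of microglia. All 6 carried the Tg-SwDI transgene, a human amyloid precursor protein with the Swedish, Dutch and Iowa changes. It is driven by the neuronal Thy1 promoter. No mouse without the transgene was included, and amyloid pathology was not measured here. The labels give neither the age or sex of the mice nor the Trem2 allele; each library is 1 mouse, and replicate numbers only name the libraries.

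The files held 39752 barcodes, 5220 to 8095 per library against the 5700 to 8100 nuclei that the series states, with knockout 2 below that range. Total UMIs lay between 11493087 and 17835287 in 5 libraries and reached 51317961 in knockout 1, which alone was counted with Cell Ranger 7.0.0. Median UMIs per kept nucleus were 1784.5 to 2752.5 in those 5 libraries and 5471 in knockout 1. Trem2 measured 20.4, 12.3 and 9.42 CPM (UMIs of the gene per 1e6 UMIs) over all kept nuclei of wild type 1, 2 and 3, and 2.92, 11.2 and 5.76 CPM in knockout 1, 2 and 3, so the groups overlapped. The Slc17a6 nuclei themselves held 1 Trem2 UMI in wild type 2 and none elsewhere. Of kept barcodes 119 occurred in more than 1 library, none of them in a Slc17a6 nucleus.

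The 5 accompanying genes were unevenly shared among the Slc17a6 nuclei. Rmst, a long noncoding RNA, had a UMI in 153 of 178, and Hap1, which encodes huntingtin-associated protein, in 141. Resp18, a protein of the regulated secretory pathway, was found in 107 and Baiap3, which acts in dense-core vesicle traffic, in 74. Libraries differed in this: Baiap3 was in 57.7% and Resp18 in 52.9% of the nuclei of knockout 1, but in 13.6% and 72.7% in wild type 2 and 6.67% and 70.0% in wild type 3. Ecel1, an endopeptidase-like protein given as a marker, was found in 10 only. Slc17a6 stood at exactly 2 UMIs in 114 nuclei, and the highest count was 9. Another 339 nuclei met every other condition with 1 Slc17a6 UMI, just outside the rule. Summed over libraries, Meis1 stood at 164 CPM in the 114 nuclei just inside and at 144 CPM in the 339 just outside. Without knockout 1 the gap was wider, at 203 CPM just inside and 115 CPM just outside. Of nuclei that failed only the condition on the 5 genes, 19 held 1 such UMI and 24 held none. Scg2 stood at 130 and 108 CPM in them and at 487 CPM in the 14 nuclei just inside. Mef2c stood at 529 and 766 CPM outside and at 329 CPM inside. Meis1 differed less, at 324 and 207 CPM outside and 289 CPM inside, as did Nxph1, at 561 and 504 CPM outside and 487 CPM inside.

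The 250 bases before the first RefSeq start of each transporter gene are shown because the 2 genes separate the kinds of nuclei compared here (RefSeq starts, GRCm38.p6, plus strand). The Slc17a6 window is chr7:51621580-51621829 and the Slc17a7 window chr7:45163671-45163920. Capitals mark the core motif of MEIS homeodomain proteins, TGACAG, searched on both strands.
Slc17a6: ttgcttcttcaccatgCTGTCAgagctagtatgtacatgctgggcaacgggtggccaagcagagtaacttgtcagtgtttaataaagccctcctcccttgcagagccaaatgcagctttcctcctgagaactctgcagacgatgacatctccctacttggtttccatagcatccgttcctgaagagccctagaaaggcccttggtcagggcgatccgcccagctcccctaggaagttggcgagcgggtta
Slc17a7: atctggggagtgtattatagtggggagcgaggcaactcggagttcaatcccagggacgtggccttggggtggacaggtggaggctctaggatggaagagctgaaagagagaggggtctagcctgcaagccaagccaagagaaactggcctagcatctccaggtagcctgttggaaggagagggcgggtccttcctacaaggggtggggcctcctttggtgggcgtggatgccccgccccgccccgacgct
The Slc17a6 window held 1 match, on the reverse strand at -234 from the start, and the Slc17a7 window held none. A second RefSeq start of Slc17a6, with its window at chr7:51624387-51624636 (41.2% GC, 3 CpG pairs), held none either. Of 32851 RefSeq promoter windows of that length 15.9% held the motif, so a match is common. GC content was 53.2% for Slc17a6 and 61.2% for Slc17a7, with 7 and 9 CpG pairs.

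The Slc17a6 nuclei came from 5 of the 6 mice, and all but 1 of them from 4. Wild type 1, 2 and 3 held 1 of 4470, 22 of 5196 and 30 of 5274 kept nuclei, which is 0.0224%, 0.423% and 0.569%. Knockout 1, 2 and 3 held 104 of 7666, none of 4164 and 21 of 4070, which is 1.36%, 0 and 0.516%; the count of 0 allows a share of up to 0.0720%. Each genotype thus had 1 library with almost no such nuclei, and the groups overlapped. Wild-type mice averaged 0.338% ± 0.283 and knockout mice 0.624% ± 0.685 (SD, n = 3 each). The difference did not exceed the spread between mice (exact permutation test, two-sided, p = 0.7; 3 against 3 cannot go below 0.1). Without knockout 1 the knockout share averaged 0.258%, below wild type.

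Knockout 1 was the deepest library and had the highest share. When each nucleus was first thinned to 2000 UMIs, leaving out shallower nuclei, the wild-type shares were 0, 0.250% and 0.333%, and the knockout shares 0.260%, 0 and 0.408%. The exact permutation test gave p = 0.8. Knockout 1 then lay between wild type 2 and wild type 3. Wild type 1 and knockout 2, with 1 and 0 Slc17a6 nuclei, also differed from the others in other transcripts. Avp, the vasopressin gene of the hypothalamus, measured 1.19 CPM in all kept nuclei of wild type 1 and 1.16 CPM in knockout 2, against 8.94 to 85.5 CPM in the other 4 libraries. Nuclei with the mitral and tufted marker Cdhr1 numbered 20 in wild type 1 and 27 in knockout 2, and 1 to 17 in the others. The part of these differences in the share of Slc17a6 nuclei was not tested. Intervals and limits of shares cover counting error only.

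**Figure D1:**
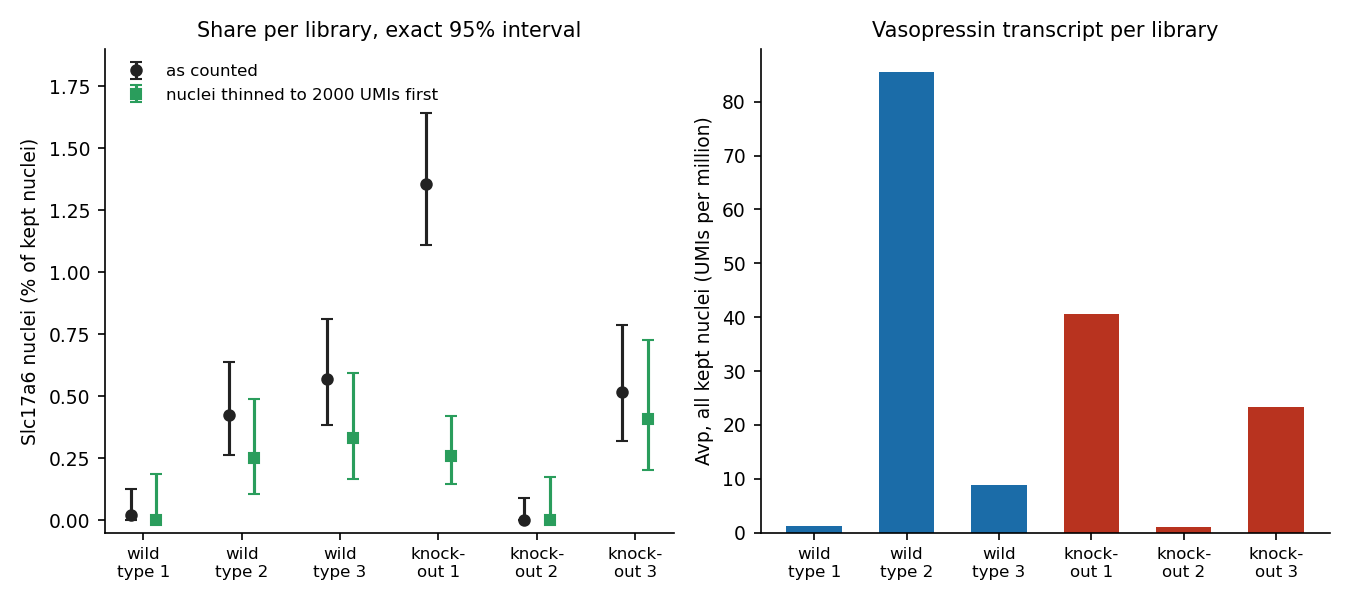
Left, Slc17a6 nuclei as a percentage of kept nuclei in each library (circles, as counted; squares, after thinning each nucleus to 2000 UMIs), with exact (Clopper-Pearson) 95% binomial intervals; right, Avp level in CPM over all kept nuclei. Wild type 1 and knockout 2 are lowest in both panels, and knockout 1, at 1.36% as counted, falls to 0.260% after thinning.

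The label subcortical was checked against markers that the rule did not use, in the 4 libraries with at least 10 Slc17a6 nuclei. Markers of cortical glutamate neurons were low: Emx1 had no UMI, Neurod6 had UMIs in 6 of 177 nuclei and Tbr1 in 11. Summed over 5 such markers, one of them Slc17a7, which the rule limits, the level was 43.5 to 102 CPM per library in Slc17a6 nuclei and 606 to 1346 CPM in Slc17a7 nuclei. The defining genes of single subcortical regions were scarce as well. Tcf7l2, a thalamic transcription factor, was found in 2 of 22, 4 of 30, 0 of 104 and 3 of 21 nuclei of wild type 2, wild type 3, knockout 1 and knockout 3. These shares were 9.09%, 13.3%, 0 and 14.3%, against 0.612%, 0.741%, 1.10% and 0.810% of Slc17a7 nuclei. Though in few nuclei, Tcf7l2 was thus more frequent in Slc17a6 nuclei in every one of these libraries except knockout 1. Gbx2 of the thalamus and Pou4f1 of the habenula had no UMI. Of 34 transcription factors of the hypothalamus and preoptic area, 24 to 28 were at 0 UMIs per library, with Sim1 in 5 nuclei and Otp in 3. Zic1 of the septum was found in 3 nuclei, and Lhx8, Otx2 and Gata3 in none. Trp73 of Cajal-Retzius cells and Tbx21 of mitral cells had no UMI either. Cortical markers were thus scarce, but no regional marker list places most of these nuclei, and the name subcortical rests on the genes of the rule.

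Slc17a6 nuclei were compared with 7383 Slc17a7 nuclei, the cortical type of glutamate neuron. These had at least 2 Slc17a7 UMIs, at most 1 Slc17a6 UMI and the same limits on the other genes. No condition was set on the 5 accompanying genes, so genes that go with those, such as other secretory genes, are not independent of the choice. The same holds for genes that go with Slc17a7 or Slc17a6, such as other genes of cortical glutamate neurons. UMIs were summed per library and kind of nucleus in wild type 2, wild type 3, knockout 1 and knockout 3, and tested with the mouse as a block. The sums held 70821, 98169, 1010886 and 88362 UMIs for Slc17a6 nuclei. Genes of either rule were given no test. Of 11640 genes 522 were higher in Slc17a6 nuclei (4.48%) and 783 lower (6.73%) by edgeR's quasi-likelihood test at an adjusted p below 0.05, together 11.2%. Knockout 1 supplied most of the UMIs: without it 204 genes were higher and 357 lower, and 509 of those 561 were among the 1305.

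Ranked here are called genes that averaged at least 100 CPM in the higher kind of nucleus and moved alike in 4 of 4 libraries. Of the 10 of these that rose most, 4 encode transcription factors: Meis1, Pbx3, Ebf1 and Zfhx3. Levels in this and the next paragraphs are CPM normalized with the trimmed mean of M-values (TMM), given for wild type 2, wild type 3, knockout 1 and knockout 3 in that order. Meis1 (ENSMUSG00000020160, protein coding, chromosome 11, 18879817 to 19018985, mm10, minus strand) measured 192, 138, 301 and 107 CPM in Slc17a6 nuclei and 5.45, 6.37, 8.83 and 2.89 CPM in Slc17a7 nuclei. No library's 2 kinds of nuclei overlapped, and Meis1 was 4.99 higher on the log2 scale (SE 0.26, edgeR adjusted p = 1.54e-78). Pbx3, which encodes a DNA-binding partner of MEIS proteins, measured 479, 459, 633 and 402 against 26.6, 29.3, 43.5 and 16.9 CPM, a log2 fold change of 4.08 (SE 0.17, edgeR adjusted p = 1.06e-116). Meis2, a listed gene outside those 10, differed less: 503, 679, 715 and 474 against 173, 224, 372 and 231 CPM, a log2 fold change of 1.24 (SE 0.15). Ebf1, a helix-loop-helix factor, measured 95.8, 385, 177 and 134 against 16.6, 13.8, 16.9 and 7.47 CPM (log2 fold change 3.75, SE 0.23). Zfhx3, a zinc-finger homeodomain factor, was 3.22 higher on the log2 scale.

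Genes of the synapse and the cell surface made up the rest of the 10 that rose most. Nxph1, whose secreted product neurexophilin binds neurexins, measured 180, 119, 615 and 170 CPM against 5.45, 6.80, 33.4 and 5.78 CPM (log2 fold change 4.40, SE 0.22, edgeR adjusted p = 2.07e-83). Glra3, a glycine receptor subunit, was 2.87 higher on the log2 scale, Fgfr1, a fibroblast growth factor receptor, 2.54 higher, and Gpc5, a glypican, 2.98 higher. Gpc5 rested on 528 UMIs in knockout 1 and on 2 to 4 in each of the other libraries, and Arhgap24 (log2 fold change 3.12), on 281 against 1 to 7. Rbms3, an RNA-binding protein, was 2.66 higher. These 10 genes were higher in 4 of 4 libraries, and all 10 were called without knockout 1.

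Slc30a3 had the largest fall of the 10 genes named here. This gene, the vesicular zinc transporter of cortical synapses, measured 0, 0, 7.93 and 17.9 CPM in Slc17a6 nuclei and 185, 207, 96.6 and 251 CPM in Slc17a7 nuclei. The 2 wild-type libraries held no UMI of it and the knockout libraries 6 and 2 (log2 fold change -4.14, SE 0.35, edgeR adjusted p = 3.14e-30). Tcf4, a helix-loop-helix factor, measured 156, 165, 225 and 62.6 against 782, 1042, 1377 and 785 CPM (log2 fold change -2.71, SE 0.18). Nfib, a nuclear factor I gene, fell by 2.68 on the log2 scale and Nptxr, the neuronal pentraxin receptor, by 2.27. Pdzrn3 (log2 fold change -4.13), Scube1 (-2.99), Rasl10a (-2.91), Dleu2 (-2.44), Cabp1 (-2.26) and Mlip (-2.25) completed the 10. All were lower in 4 of 4 libraries and were called without knockout 1 too.

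**Figure D2:**
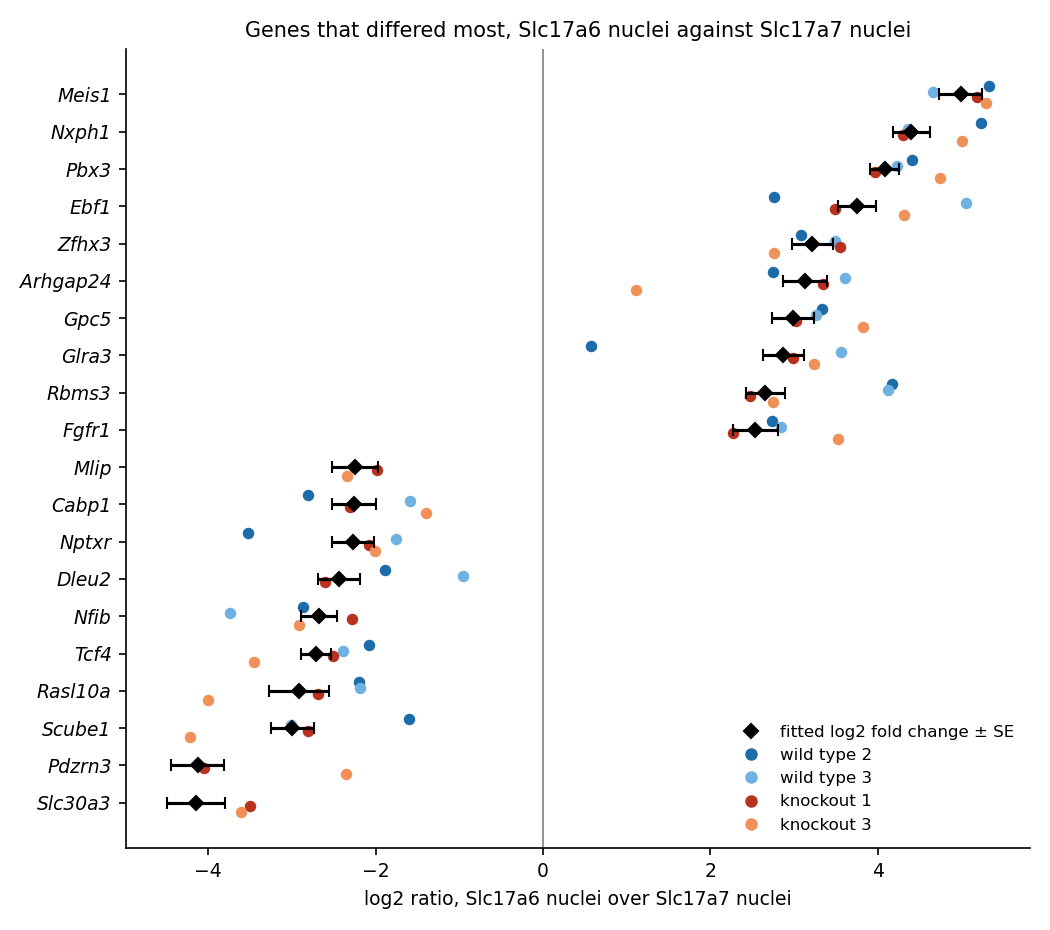
Log2 ratio of Slc17a6 nuclei over Slc17a7 nuclei for the 10 called genes that rose most and the 10 that fell most; diamonds are the fitted log2 fold change with its standard error and circles are single libraries, drawn where Slc17a6 nuclei held at least 1 UMI. Meis1, at 4.99, is farthest to the right, and every drawn circle lies on the side of its diamond.

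The lists of subcortical regions held few tested genes, and over all genes tested 4.48% were higher and 6.73% lower. Of the septal list 3 of 4 tested genes were higher (Meis1, Meis2 and Trpc4, a cation channel, by 1.28 on the log2 scale), of the midbrain and hindbrain list 2 of 2 (Ebf1 and Meis2). Among 4 tested thalamic genes 1 was higher and 2 were lower (2 and 2 of 5 without knockout 1). Among 2 habenular genes 0 were higher and 1 was lower, and of the Cajal-Retzius list 2 of 3 were higher. Of 7 tested hypothalamic and preoptic factors 1 was higher and 3 were lower, among them Sox5, which fell by 1.42. Without knockout 1 none of 6 was higher and 1 was lower. The higher factor was Sim1 (log2 fold change 1.60), with 19 of its 20 UMIs in knockout 1 and 15 of them in 1 nucleus; without wild type 2 it was not called (edgeR adjusted p = 0.0566). Calb2, the calcium-binding protein calretinin, was 4.14 higher, resting on 1, 7, 8 and 3 UMIs. Against the Gad1/Gad2 nuclei described below, 1 of 4 tested septal genes was higher and 1 lower. There 1 of 2 midbrain and hindbrain genes was higher, and 3 of 3 of the Cajal-Retzius list were lower.

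Across a list of cortical transcription factors, 17 of 23 tested were lower in Slc17a6 nuclei and 1 was higher. Both kinds of nuclei were chosen by Slc17a7 UMIs, so the direction of this list is not independent of the choice. The list's median log2 fold change was -1.50, against -0.07 over all genes tested. Mef2c, a factor of maturing cortical neurons, measured 287, 239, 432 and 250 against 1589, 1267, 1398 and 1152 CPM (log2 fold change -2.09, SE 0.16, edgeR adjusted p = 3.95e-37). Bcl11b fell by 1.60, Rorb by 1.52 and Bcl11a by 0.90 on the log2 scale. Emx1 had no UMI in the Slc17a6 nuclei of these libraries and 6.72 CPM, not normalized, in Slc17a7 nuclei, so it was at least 2.84-fold lower (floor of 3 counts over the group). Foxp2, the gene that was higher (log2 fold change 0.68), had a log2 fold change of 0.86 without knockout 1 and was not called (edgeR adjusted p = 0.535). Without that library 9 of 23 were lower and none higher.

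Signalling genes of calcium-calmodulin kinase and postsynaptic plasticity were lower in 9 of 16 tested and higher in none, with a median of -0.67. Without knockout 1 the count was 7 of 16. Camk2a, the kinase subunit abundant in cortical glutamate neurons, measured 263, 294, 500 and 295 against 637, 587, 1140 and 832 CPM (log2 fold change -1.23, SE 0.16). Homer1, a postsynaptic scaffold, fell by 0.80 and Kalrn, a spine regulator, by 0.98.

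Secreted peptides and their processing were higher in part. Of 13 neuropeptide genes tested 5 were higher and none lower; 3 were higher without knockout 1. Cck, cholecystokinin, measured 383, 303, 78.0 and 286 against 203, 110, 76.1 and 111 CPM (log2 fold change 0.86, SE 0.18), with almost the same level in both kinds of nuclei of knockout 1. After thinning to 2000 UMIs Cck had a log2 fold change of 0.70 and Chga, chromogranin A, of 0.81, and neither was called (edgeR adjusted p = 0.058 and 0.0559). Adcyap1, which encodes PACAP, was 2.08 higher on the log2 scale and Penk, proenkephalin, 1.25 higher, each in 3 of 4 libraries. Penk reached 227 CPM in wild type 2 and 36.7 to 80.4 CPM elsewhere. The call on Tac1 was lost without knockout 1 (edgeR adjusted p = 0.361). Scg2, secretogranin of dense-core vesicles, measured 575, 964, 330 and 420 against 121, 156, 60.1 and 143 CPM (log2 fold change 2.26, SE 0.15, edgeR adjusted p = 2.28e-46). It was among 5 of 16 processing genes that were higher, with Chga and Pcsk1n at 0.84 and 0.94. Another 3 were lower, Pcsk2, a prohormone convertase, by 1.03. Only the Slc17a6 nuclei had to hold the accompanying genes, so the direction of secretory genes is not independent of the choice. Summed over all libraries and not normalized, Scg2 stood at 355 CPM in Slc17a6 nuclei and 83.3 CPM in Slc17a7 nuclei. Nuclei that failed only that condition stood at 130 CPM (1 such UMI) and 108 CPM (none).

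The call on Avp came from 1 nucleus. Slc17a6 nuclei held 3, 0, 216 and 2 Avp UMIs, and 209 of the 216 lay in a single nucleus of knockout 1 that also held 15 Sim1 UMIs, Sim1 being a factor of the vasopressin-producing paraventricular hypothalamus. Without that nucleus knockout 1 stood at 7.02 CPM instead of 214 CPM, not normalized. Avp was 3.32 higher on the log2 scale with knockout 1 and was not called without it (edgeR adjusted p = 0.495). Agrp, a peptide of the arcuate hypothalamus, had UMIs in 39 of 104 nuclei of knockout 1 and in none elsewhere, but Slc17a7 nuclei of knockout 1 had it as well, at 53.2 CPM against 46.5 CPM, not normalized. Agrp therefore moved with the library and not with the kind of nucleus.

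Receptors and channels differed in both directions. Of 25 peptide and hormone receptor genes tested 4 were higher and 1 lower (5 and 1 without knockout 1). Prlr, the prolactin receptor, rested on 1, 6, 38 and 6 UMIs. It measured 55.1, 50.2 and 53.6 CPM in the last 3 of these libraries, against 1.20 to 2.76 CPM in Slc17a7 nuclei (log2 fold change 4.56, SE 0.45). Tacr1, the substance P receptor, was 3.74 higher on the log2 scale, while Vipr1, a receptor for vasoactive intestinal peptide, fell by 2.52. Of 17 monoamine and acetylcholine receptor genes 7 were higher and 4 lower (4 and 2 without knockout 1). Htr2c, a serotonin receptor, measured 156, 257, 874 and 161 against 46.7, 87.9, 203 and 67.2 CPM (log2 fold change 1.78, SE 0.18), and Htr1b was 2.04 higher.

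Ionotropic glutamate receptor genes split, with 5 of 16 higher and 4 lower (3 and 2 of 15 without knockout 1). Grin3a, an NMDA receptor subunit, was 2.01 higher and Grin2a, another, fell by 1.28 on the log2 scale. Among GABA receptor genes Gabrg1 was 2.80 higher and Gabrd had a log2 fold change of -1.47, and of -1.19 after thinning, where it was not called (edgeR adjusted p = 0.223). The sodium channel gene Scn9a was 2.10 higher and the calcium channel subunit gene Cacna2d2 was 2.37 higher.

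Detection in single nuclei gave the same direction at matched depth, for nuclei chosen by the rule at full depth. Applied after thinning, the rule kept 16 nuclei of knockout 1, against the 104 used here. After thinning each nucleus to 2000 UMIs, Meis1 had a UMI in 31.6%, 26.1%, 19.2% and 23.8% of the 19, 23, 104 and 21 deep enough Slc17a6 nuclei of wild type 2, wild type 3, knockout 1 and knockout 3. In Slc17a7 nuclei, which are no direct measure of free RNA, it was found in 0.643%, 0.731%, 1.20% and 0.482%. Without thinning the shares were 31.8%, 26.7%, 37.5% and 23.8% in Slc17a6 nuclei, whose median depths were 2854.5, 2985, 8820 and 4132 UMIs. The Slc17a7 medians were 2946, 3177, 9060 and 4009.5 UMIs. Pbx3 was found in 37.5% to 57.1% of thinned Slc17a6 nuclei and 3.13% to 4.68% of Slc17a7 nuclei. Mef2c went the other way, at 30.4% to 43.3% against 79.4% to 90.3%.

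**Figure D3:**
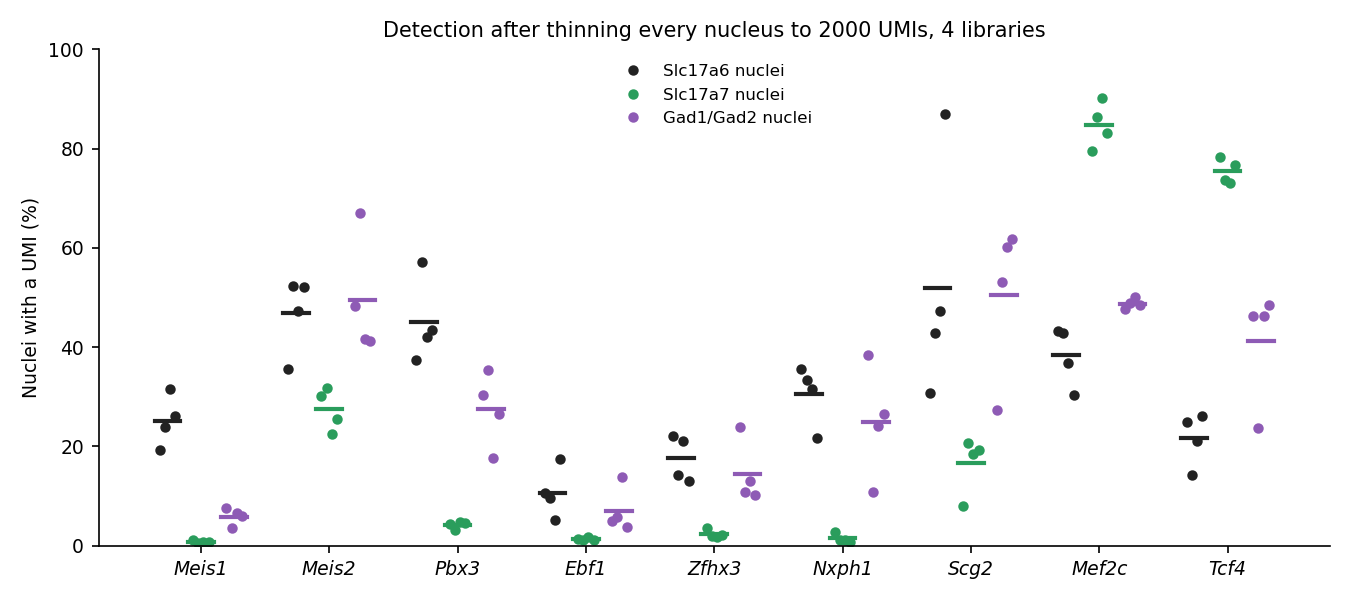
Percentage of nuclei, chosen at full depth, with at least 1 UMI of each gene after thinning every nucleus to 2000 UMIs. Each circle is 1 of 4 libraries and each bar the mean of the 4. Meis1, Pbx3 and Nxph1 separate Slc17a6 from Slc17a7 nuclei in every library, while Gad1/Gad2 nuclei also hold Pbx3 (17.6% to 35.5%), Nxph1 (10.9% to 38.3%), Meis2 and Scg2.

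A second comparison held the 5 accompanying genes in common. The 1330 Gad1/Gad2 nuclei met the same condition on those genes but had at least 2 UMIs of the GABA-synthesis genes Gad1 and Gad2 and at most 1 of each transporter. They are a mixture that holds Sst, Npy and Vip transcripts of interneurons. Of 7318 genes tested 129 were higher in Slc17a6 nuclei (1.76%) and 148 lower (2.02%), together 3.79%. Without knockout 1 the counts were 51 and 63, and 98 of those 114 genes were among the 277.

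Tmem163, which encodes a zinc-binding vesicle membrane protein, rose most among called genes within the same limits on level and direction. It measured 109, 94.8, 408 and 142 CPM in Slc17a6 nuclei and 5.03, 3.82, 23.6 and 4.16 CPM in Gad1/Gad2 nuclei (log2 fold change 4.26, SE 0.24, edgeR adjusted p = 2.49e-15). Meis1 rose here too, at 219, 158, 322 and 122 against 27.7, 28.6, 57.9 and 29.1 CPM (log2 fold change 2.46, SE 0.20, edgeR adjusted p = 2.95e-11). Ebf1 was 1.38 higher on the log2 scale. Of the presynaptic genes, Sv2b, a synaptic vesicle protein, was 2.18 higher and Unc13b, a vesicle-priming factor, 1.95 higher. Hs3st4, a heparan sulfate sulfotransferase, was 2.32 higher, with 3 to 6 UMIs in each library except knockout 1, which had 1118. Cck was 1.44 higher, and Tafa1, Car10, Clmn and Ptprd were 2.11, 1.82, 1.58 and 1.55 higher; the call on Clmn was lost after thinning to 2000 UMIs (edgeR adjusted p = 0.250). Scg2 did not pass the test, at 656, 1106, 353 and 478 against 722, 935, 250 and 509 CPM (log2 fold change 0.17, SE 0.14, edgeR adjusted p = 0.780).

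Genes of cholesterol synthesis and uptake lay higher: 17 of 17 tested had a positive log2 fold change, with a median of 0.62 against -0.02 over all genes, and 3 were called. Without knockout 1, 1 of 14 tested was called. Of 15 tested plasticity genes 3 were higher, Nrgn, which encodes neurogranin, by 1.14 on the log2 scale and Arpp21 by 0.94. Of 9 neuropeptide genes tested 1 was higher and 5 were lower.

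Genes of inhibitory neurons were lower. Both kinds of nuclei were chosen by Gad1 and Gad2 UMIs, so genes that go with those are not independent of the choice. Dlx6os1, a noncoding RNA of the Dlx locus, had no UMI in 177 Slc17a6 nuclei and 223 CPM, not normalized, in Gad1/Gad2 nuclei, so it was at least 94.5-fold lower (floor of 3 counts over the group). Slc32a1, the vesicular GABA transporter, measured 27.3, 0, 7.05 and 20.4 against 256, 244, 127 and 266 CPM (log2 fold change -4.11, SE 0.34, edgeR adjusted p = 2.79e-11). The interneuron peptides Npy, Vip and Sst fell by 4.05, 3.90 and 3.53 on the log2 scale. Sox6 and Maf, factors of cortical interneurons, fell by 4.01 and 4.53, and Erbb4, a neuregulin receptor, by 2.91. Sox2ot, a long noncoding RNA, fell by 4.92, with 40 UMIs in knockout 1 and none in the other 3 libraries. These genes partly describe which inhibitory neurons the comparison holds.

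**Figure D4:**
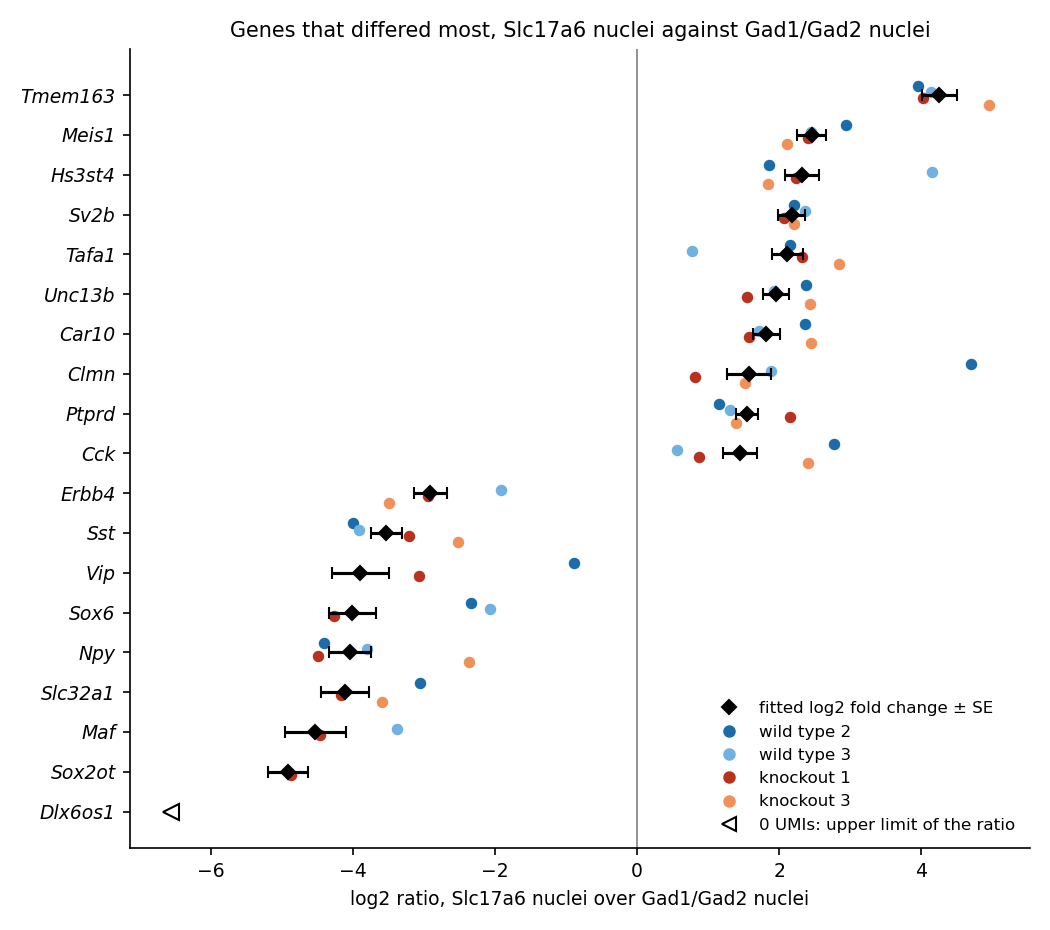
Log2 ratio of Slc17a6 nuclei over Gad1/Gad2 nuclei with the same accompanying genes, for the 10 called genes that rose most and 9 of the 10 that fell most. Genes were chosen within the same limits and drawn as for the other comparison. The open triangle marks the limit for a gene with 0 UMIs. Tmem163 lies farthest right at 4.26, and Dlx6os1 had no UMI in Slc17a6 nuclei.

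Within the Slc17a6 nuclei, Meis1 and Meis2 occurred together. In the 4 libraries 53 of 59 nuclei with Meis1 also had Meis2, against 29 of 118 nuclei without Meis1. The nuclei were divided, after these values were seen and as a description only, into 79 with at least 2 UMIs of the pair, 89 with none and 9 with 1. Median depth was 6732 UMIs in the first and 5121 in the second. Whether depth has a part in the differences was not tested.

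Pooled over the 4 libraries, the nuclei with and without the Meis pair differed in the shares that held other transcription factors. Nuclei with 1 UMI of the pair are in neither set, and no test over mice was made. Pbx3 was found in 69 of 79 nuclei with the pair (87.3%) and in 40 of 89 without (44.9%). Lhx2, a LIM-homeodomain factor, was found in 19 of 79 against 1 of 89, and Ebf1 in 19 against 7. Nr2f2, an orphan nuclear receptor also named COUP-TFII, ran the other way, in 13 of 79 (16.5%) against 34 of 89 (38.2%).

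The same order appeared without knockout 1 for these factors, again with the nuclei of the other libraries pooled. There Pbx3 was found in 28 of 32 and 11 of 34 nuclei, Lhx2 in 6 and none, Ebf1 in 8 and 1, and Nr2f2 in 3 and 13. Scg2 and Rmst marked both sets: Scg2 was found in 56 of 79 and 58 of 89 nuclei and Rmst in 62 and 83. Ebf1 in nuclei with the pair was 0 of 8 in wild type 2, 5 of 13 in wild type 3, 11 of 47 in knockout 1 and 3 of 11 in knockout 3. The 3 nuclei of wild type 2 that held Ebf1 all lay outside the set with the pair, so this mouse did not show that order for Ebf1.

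**Figure D5:**
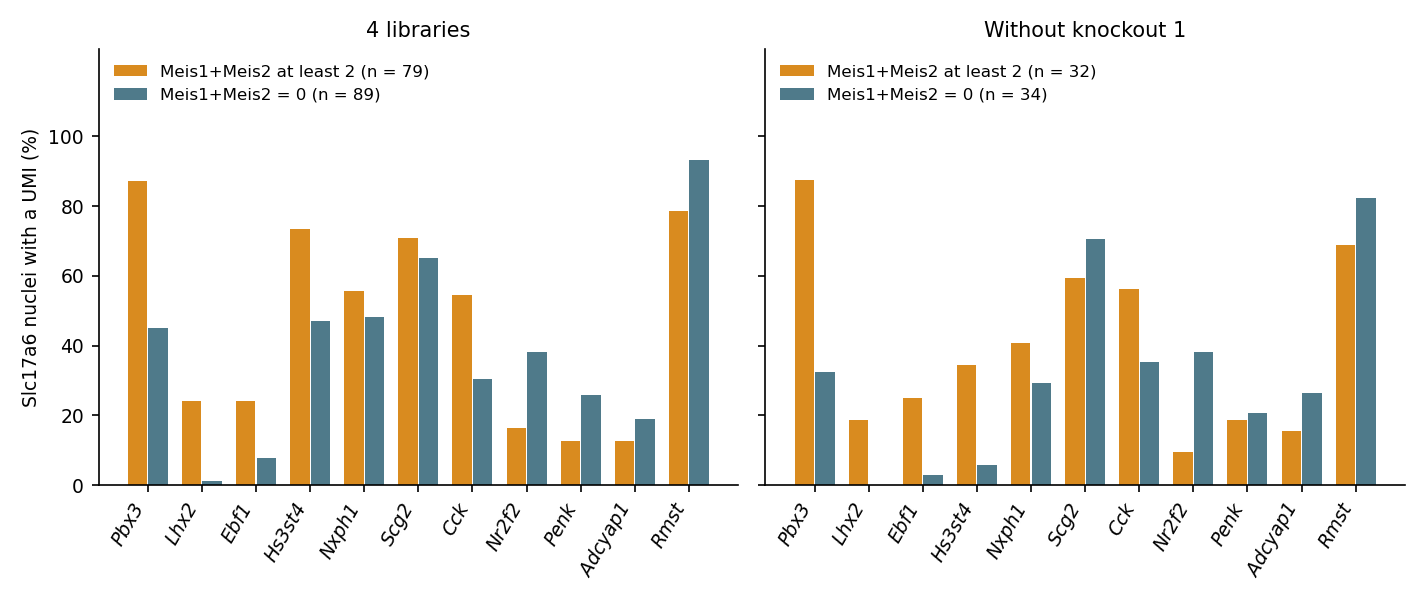
Percentage of Slc17a6 nuclei with a UMI of each gene, for nuclei with at least 2 UMIs of Meis1 and Meis2 together and nuclei with none; left, 4 libraries (79 and 89 nuclei), right, without knockout 1 (32 and 34 nuclei). Pbx3, Lhx2 and Ebf1 are more frequent with the Meis pair and Nr2f2 without it, in both panels.

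Genotypes could be compared within Slc17a6 nuclei only between wild type 2 and 3 and knockout 1 and 3. None of 1761 genes was called by edgeR at an adjusted p below 0.05 (0%), with 103 at an unadjusted p below 0.05; DESeq2 called 9. The design had little power: on simulated counts it recovered 0, 3% and 0 of genes changed by 1, 2 and 3 on the log2 scale. The 5 smallest p-values belonged to B3galt1, Frmpd4, Stau2, Paip2 and Hdac9, each with an edgeR adjusted p of 0.796. B3galt1, a galactosyltransferase, measured 0 and 14.7 normalized CPM in wild type 2 and 3, and 875 and 150 in knockout 1 and 3. The other 4 were likewise highest in knockout 1, the library of the other software version, and Frmpd4, Stau2 and Hdac9 had an edgeR adjusted p of 0.948 without it. Version and genotype cannot be told apart in that library.

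Mouse genes of the amyloid and lipid list did not pass the test either, and the human transgene was not measured here. App, counted against the mouse genome, stood at 958 and 1355 normalized CPM in the wild-type libraries and at 1133 and 841 in the knockout libraries, and the groups overlapped (log2 fold change -0.23, SE 0.82). Apoe had a log2 fold change of -0.53 (SE 0.59) and Thy1, whose promoter drives the transgene, of -0.69 (SE 0.76). Of 7 tested genes of the amyloid and lipid list none was called.

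Without knockout 1, 8 of 2267 genes were called between genotypes (0.353%), with knockout 3 as the only knockout library. In it 3 were lower, among them Ptgds and Gpc6, and 5 higher, among them Col11a1, Fth1, Rpl17 and Rps16. Ptgds, prostaglandin D2 synthase, measured 141 and 1487 CPM, not normalized, in wild type 2 and 3, 73.2 in knockout 1 and 124 in knockout 3, so wild type 3 alone stood apart. The 6 astrocyte markers summed to 469 CPM in the Slc17a6 nuclei of wild type 3 and to 127 to 170 CPM in the others; their part in the result was not tested. Col11a1 reached 815 CPM in knockout 3 and 68.3 to 155 CPM elsewhere, so knockout 1 did not share it.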

How the data were processed

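Nuclei of 6 mice were profiled with 1 droplet library per mouse. The authors deposited raw UMI counts per gene and barcode; per the file headers they were made with Cell Ranger 6.1.2 in 5 libraries and 7.0.0 in knockout 1, and the submitters' processing notes name Cell Ranger, Seurat and mm10. The sources used here do not say whether intronic reads were counted. Of 32285 genes 99.6% matched the GENCODE M21 annotation by identifier.

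Kept barcodes had 500 or more genes and no more than 5% of UMIs from mitochondria, and the rule was applied to raw counts. The members, lists and named genes were chosen with earlier results of these data known. Slc17a7 nuclei and Gad1/Gad2 nuclei were chosen by matching rules. UMIs were summed per library and kind where a library held at least 10 Slc17a6 nuclei. Sums were tested with edgeR 4.0.16 (quasi-likelihood, TMM, filterByExpr, library as block for comparisons of kinds, R 4.3.3) with Benjamini-Hochberg adjustment over all genes tested; DESeq2 1.42.0 was an alternative. The tests were tried on simulated data. Each library is 1 mouse, and mice are the replicates of every test. In the gene tests the spread between mice was estimated with information shared across genes. Very small p-values therefore do not rest on the spread of that gene between the mice alone.

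Named genes are the 10 called genes with the largest rise and the 10 with the largest fall that moved the same way in 4 of 4 libraries and averaged at least 100 CPM in the higher kind of nucleus, leaving out genes of the rule, mitochondrial, sex-linked and unnamed loci, and for genotypes the 5 smallest p-values with Trem2, App, Apoe and Thy1; genes of the lists are given as examples. Doublets were marked with Scrublet (scanpy 1.11.5, Python 3.11.15, expected rate 6%); it marked 182, 1 and 2 nuclei in wild type and 233, 123 and 126 in knockout, 1 of them a Slc17a6 nucleus, and none was removed in the values reported. In wild type 2 and 3 its threshold had not worked, so the top 6% of scores per library were left out as an alternative. Thinning drew 2000 UMIs per nucleus. It came after the choice of nuclei, except for the thinned shares, where the rule was applied to the thinned counts. A comparison with Cdhr1 mitral and tufted nuclei was not made, since only 2 libraries held at least 10 of both kinds. Results on some genes are not reported here.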

Additional observations from a re-analysis of the deposited data

How the results depend on the processing

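The share of Slc17a6 nuclei differed between genotypes by 0.286 percentage points. It kept its sign in every alternative except without knockout 1, where it was -0.0802 (exact permutation p = 0.8); leaving out 1 library at a time gave -0.0802 to 0.598. Against Slc17a7 nuclei, 1305 genes became 2274 without a filter on low counts (584 higher, 1690 lower), 546 with DESeq2 (301 and 245) and 676 after thinning (192 and 484), against 522 and 783. Leaving out 1 library at a time gave 561 to 1318. Of the DESeq2 calls 89.2% were among the 1305, and of the thinned calls 90.5%. Against Gad1/Gad2 nuclei, 277 became 448 without the filter, 109 with DESeq2 and 137 after thinning, and 114 to 292 with 1 library left out. Between genotypes, 0 became 144 without the filter, 9 with DESeq2 and 1 with no minimum of nuclei per library; leaving out 1 library gave 0 to 1167, the highest without knockout 3, which left knockout 1 as the lone knockout library, assumed to vary like wild type. The cause of these changes was not tested.

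For the 10 genes that rose most and the 10 that fell most, 220 of 220 values against Slc17a7 nuclei stayed on their side of the threshold, and 212 of 214 against Gad1/Gad2 nuclei; the exceptions were Clmn after thinning (0.98, edgeR adjusted p = 0.250) and Vip with DESeq2 (-4.45, adjusted p = 0.173). The stricter rule of 3 UMIs left 4, 6 and 8 nuclei in 3 libraries, so the gene tests were not run with it. No paired analysis was possible because the labels give no replicate numbers that pair mice across genotypes.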
